A study of Homo sapiens with 4 samples.

Results

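Metallothioneins, the zinc-sensing transcription factor MTF1 and the zinc exporter SLC30A1 were followed in Huh7 and Huh1, established human hepatocellular carcinoma cell lines. The members were the 10 named genes MT2A, MT1E, MT1F, MT1X, MT1G, MT1A, MT1M, MT1H, MTF1 and SLC30A1, chosen by symbol out of 18382 symbols in the deposited files, and all 10 were found, each on 1 row. The study compared an siRNA against ODC1 with a negative control (NC) siRNA in each line, with RNA sequencing as the readout. The groups were Huh7 with ODC1 siRNA, Huh7 with NC siRNA, Huh1 with ODC1 siRNA and Huh1 with NC siRNA, and every group was treated with an siRNA. Each group was 1 library of total RNA, so no line has a replicate of either siRNA, and nothing in the labels says whether the libraries came from separate cultures. Ornithine decarboxylase, the product of ODC1, makes putrescine and so opens the polyamine pathway. Values are RPKM, read counts scaled by transcript length and by library depth.

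Metallothioneins are small cytosolic proteins rich in cysteine that bind zinc and copper and buffer cadmium and other heavy metals. When free zinc is high, MTF1 binds metal response elements in the promoters of metallothionein genes and of SLC30A1 and drives their transcription. The metallothionein 1 and 2 genes are expressed in liver, where zinc, glucocorticoids, interleukin-6 and oxidative stress induce them, and they are often low in hepatocellular carcinoma. SLC30A1 sits in the plasma membrane and exports zinc from the cell.

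The 8 metallothionein genes lie together on chromosome 16, within 56608199 to 56684196 of the GRCh38 annotation, and all but MT1G are on the plus strand. MTF1 and SLC30A1 lie apart from them on the minus strand of chromosome 1, at 37809567 to 37859620 and 211571568 to 211578742. Every metallothionein coding sequence had 186 bases, and 20 of its 61 codons were cysteine codons. The first 60 coding bases of 7 of them, from GENCODE release 29 on GRCh38 (chromosome 16), are given to show how alike these transcripts are. The capitals mark cysteine codons, and the genes are ordered by their level in Huh7 with ODC1 siRNA.
MT2A: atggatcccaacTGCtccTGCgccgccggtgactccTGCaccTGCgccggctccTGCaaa
MT1E: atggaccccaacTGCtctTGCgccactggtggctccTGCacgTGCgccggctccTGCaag
MT1F: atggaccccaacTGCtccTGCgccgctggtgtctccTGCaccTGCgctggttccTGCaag
MT1X: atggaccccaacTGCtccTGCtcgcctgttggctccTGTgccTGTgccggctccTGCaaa
MT1G: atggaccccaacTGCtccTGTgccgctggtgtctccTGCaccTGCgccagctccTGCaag
MT1M: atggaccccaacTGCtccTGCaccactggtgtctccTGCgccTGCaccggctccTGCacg
MT1H: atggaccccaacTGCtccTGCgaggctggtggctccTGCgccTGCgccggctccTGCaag

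Each of these stretches held 5 cysteine codons at the same places. Over the whole coding sequence, the 28 pairs of metallothioneins were identical at between 88.7% of bases (MT1F and MT1X) and 95.2% (MT1G and MT2A). Of all windows of 50 bases along the matched transcript, 45.1% in MT1X, 20.4% in MT1H and 20.2% in MT1G also occurred letter for letter in a transcript of another gene. The share was between 3.59% and 7.05% in MT1F, MT2A, MT1E, MT1A and MT1M. The matched transcripts of MT2A (786 bases), MT1M (829), MT1E (704) and MT1F (690) are longer than the lengths that fit the deposited values. Those were 419, 440, 506 and 441 bases, so the share in the part counted may be higher for these genes. Reads from shared windows cannot be assigned to 1 gene, and the level of MT1X, MT1H and MT1G is therefore the least certain.

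The targeted gene ODC1 was at 7.50 RPKM with ODC1 siRNA, against 167 RPKM with NC siRNA, in Huh7. It was at 25.01 RPKM with ODC1 siRNA, against 103 RPKM with NC siRNA, in Huh1. The direction was that of the labels in both lines, and the remaining share was lower in Huh7, at 4.49% (95% counting interval 3.81% to 5.27%), than in Huh1, at 24.2% (22.1% to 26.5%). Sequencing depth, worked out from the spacing of the low RPKM values, was between 10215332 reads (Huh7 with ODC1 siRNA) and 13384836 reads (Huh1 with NC siRNA), and counting intervals rest on it and cover counting error only. All 11 hepatocyte markers examined, ALB among them, reached 1 RPKM or more. The blood and endothelium markers that were present in the files summed to at most 0.599 RPKM in any library.

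With ODC1 siRNA, MT2A, MT1E and MT1X stood higher than with NC siRNA in each line, at ratios between 1.40 and 1.95. MT1F and MT1G were higher in Huh7 and barely present in Huh1, and MT1A was nearly level. MT2A, which encodes metallothionein 2 and had the highest level of the 8 in each library, was at 155 RPKM in Huh7 with ODC1 siRNA, against 111 RPKM with NC siRNA. In Huh1 it was at 10.4 RPKM with ODC1 siRNA, against 5.35 RPKM with NC siRNA. In bulk RNA such a difference cannot tell more RNA per cell from more cells that express the gene. The value with ODC1 siRNA was the higher of each pair, and both Huh7 libraries lay above both Huh1 libraries. The ratio of ODC1 to NC siRNA was 1.40 in Huh7 (95% counting interval 1.25 to 1.57, on 664 and 565.5 reads) and 1.95 in Huh1 (1.21 to 3.18, on 49 and 30 reads).

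MT1E, like the other MT1 genes, encodes an isoform of metallothionein 1. It was at 94.8 RPKM in Huh7 with ODC1 siRNA, against 57.2 RPKM with NC siRNA, a ratio of 1.66 (1.44 to 1.91, on 490 and 353 reads). In Huh1 it was at 8.80 RPKM with ODC1 siRNA, against 5.02 RPKM with NC siRNA, a ratio of 1.75 (1.11 to 2.80, on 50 and 34 reads). The counting intervals of the lines overlap. MT1X was at 47.3 RPKM in Huh7 with ODC1 siRNA, against 31.4 RPKM with NC siRNA, and at 6.47 RPKM in Huh1 with ODC1 siRNA, against 3.50 RPKM with NC siRNA. Its ratios were 1.505 in Huh7 (1.23 to 1.85) and 1.85 in Huh1 (1.04 to 3.36). MT2A, MT1E and MT1X were the only metallothioneins with more than 3 reads in either Huh1 library.

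MT1F was at 62.8 RPKM in Huh7 with ODC1 siRNA, against 33.2 RPKM with NC siRNA, a ratio of 1.89 (1.56 to 2.296, on 283 and 178.5 reads). In Huh1 it rested on 2 reads with ODC1 siRNA (0.404 RPKM) and 0 reads with NC siRNA, where a count of 0 allows up to 0.508 RPKM, so no ratio can be given. MT1G was at 21.01 RPKM in Huh7 with ODC1 siRNA, against 10.6 RPKM with NC siRNA, a ratio of 1.99 (1.39 to 2.87, on 85 and 51 reads), and Huh1 held 1 read with ODC1 siRNA and 0 with NC siRNA. MT1F and MT1G had the highest Huh7 ratios of the 8 metallothioneins, and no difference in Huh1 was detectable for either at this depth. Their Huh7 counting intervals overlap those of MT1E, MT1X and MT1M, so their lead over these genes is within counting error.

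MT1M was at 3.34 RPKM in Huh7 with ODC1 siRNA, against 2.05 RPKM with NC siRNA (ratio 1.63, 0.699 to 3.92, on 15 and 11 reads). MT1H was at 1.97 RPKM in Huh7 with ODC1 siRNA, against 1.36 RPKM with NC siRNA (ratio 1.45, 0.452 to 4.82). Both intervals span 1, and both genes were listed at 0 in each Huh1 library. MT1A was at 8.40 RPKM in Huh7 with ODC1 siRNA, against 9.11 RPKM with NC siRNA (ratio 0.923, 0.572 to 1.48, on 34 and 44 reads). In Huh1 it stood on 3 reads in each library, at 0.675 RPKM with ODC1 siRNA and 0.566 RPKM with NC siRNA. MT1A was the 1 metallothionein whose level in Huh7 was not higher with ODC1 siRNA, and the difference was within counting error.

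**Figure D1:**
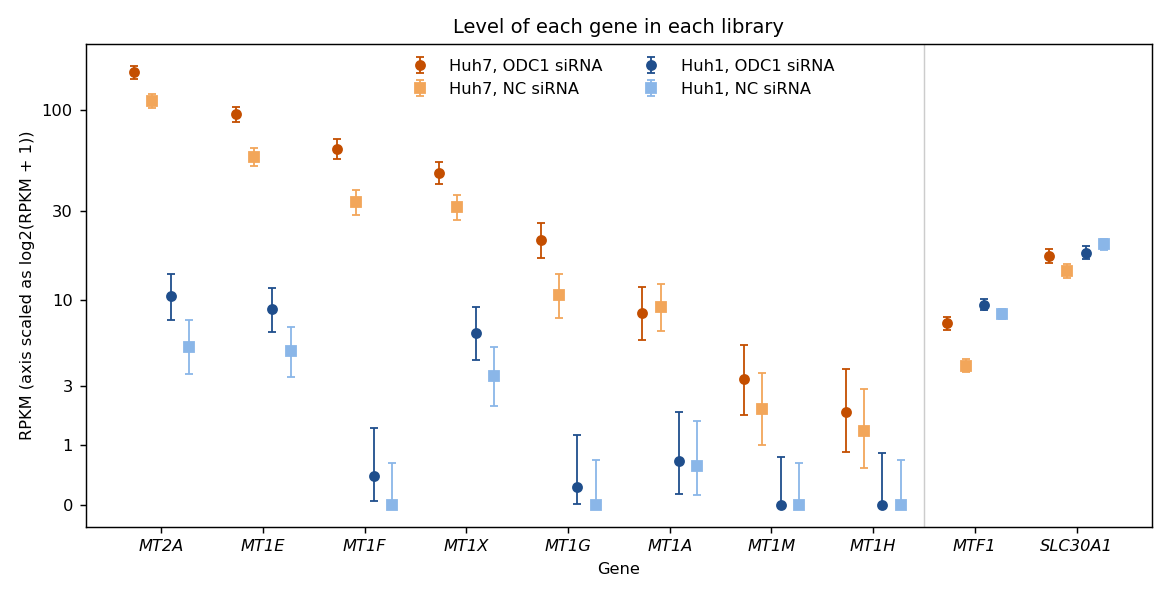
Level of the 10 genes in each library, as RPKM on an axis scaled as log2(RPKM + 1). Points are single libraries and bars are 95% counting intervals. MT2A, at 155 and 111 RPKM in Huh7, tops the metallothioneins, and MTF1 lies between 4.09 and 9.37 RPKM.

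**Figure D2:**
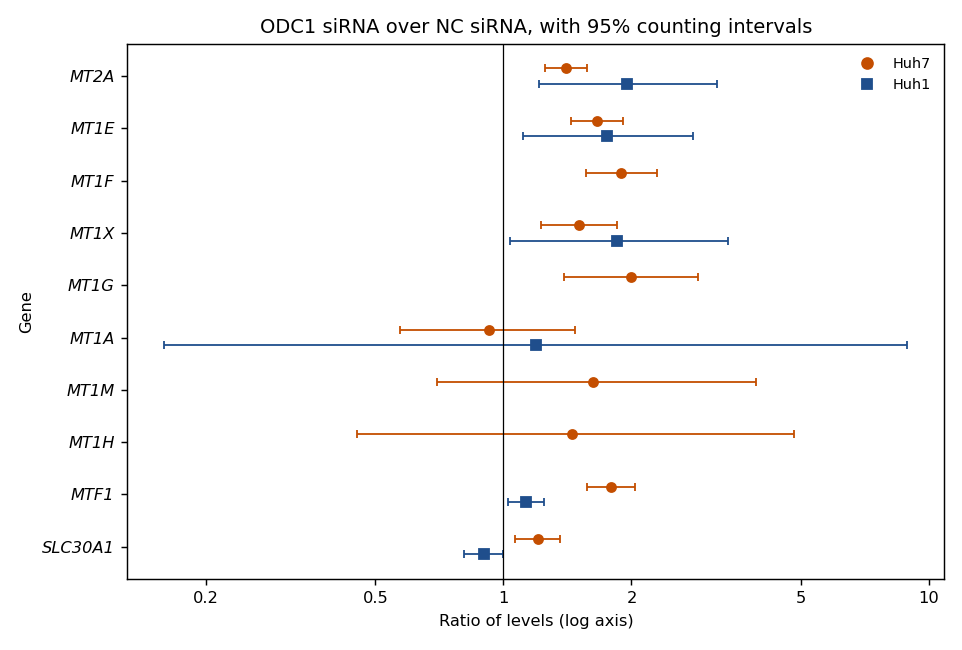
Ratio of ODC1 siRNA to NC siRNA for each gene, in Huh7 (circles) and Huh1 (squares), on a log axis with 95% counting intervals. No ratio is drawn where the NC library in Huh1 held 0 reads. The intervals of MT2A, MT1E and MT1X lie above 1 in both lines, while that of SLC30A1 lies above 1 in Huh7 (1.204) and just below 1 in Huh1 (0.899).

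How shared reads were counted is not known. If each was counted once, the sum over the 8 metallothioneins depends little on their division, apart from reads given to other genes or pseudogenes. It was 395 RPKM in Huh7 with ODC1 siRNA, against 256 RPKM with NC siRNA, and 26.99 RPKM in Huh1 with ODC1 siRNA, against 14.4 RPKM with NC siRNA. The ratio was 1.54 in Huh7 and 1.87 in Huh1. Computed on summed reads, the ratio was 1.55 in Huh7 (95% counting interval 1.45 to 1.67) and 1.86 in Huh1 (1.42 to 2.46). The pool was thus larger with ODC1 siRNA in each line by more than counting error, and the intervals of the lines overlap.

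MT1F and MT1G gave less of this pool in Huh1 than in Huh7, and the shares of MT1E and MT1X were larger in Huh1. MT2A gave 39.3% of the sum with ODC1 siRNA and 43.3% with NC siRNA in Huh7, and 38.6% with ODC1 siRNA and 37.1% with NC siRNA in Huh1. MT1E gave 24.01% with ODC1 siRNA and 22.4% with NC siRNA in Huh7, and 32.6% with ODC1 siRNA and 34.8% with NC siRNA in Huh1. MT1X gave 11.98% with ODC1 siRNA and 12.3% with NC siRNA in Huh7, and 23.96% with ODC1 siRNA and 24.2% with NC siRNA in Huh1. MT2A thus had the largest share in each library, but in Huh1 the counting intervals of its level and that of MT1E overlap. The Huh1 shares have no interval and rest on 138 summed reads with ODC1 siRNA and 88 with NC siRNA. MT1E held 50 and 34 of these reads and MT1X 33 and 21. With MT1F and MT1G nearly absent in Huh1, the shares of the other genes must rise there. The MT1X share also depends on how shared reads were divided. A gain by MT1E or MT1X beyond this was not tested. MT1F took 15.9% with ODC1 siRNA and 12.99% with NC siRNA in Huh7, and 1.497% with ODC1 siRNA and 0% with NC siRNA in Huh1. MT1G took 5.32% with ODC1 siRNA and 4.13% with NC siRNA in Huh7, and under 1% in Huh1.

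**Figure D3:**
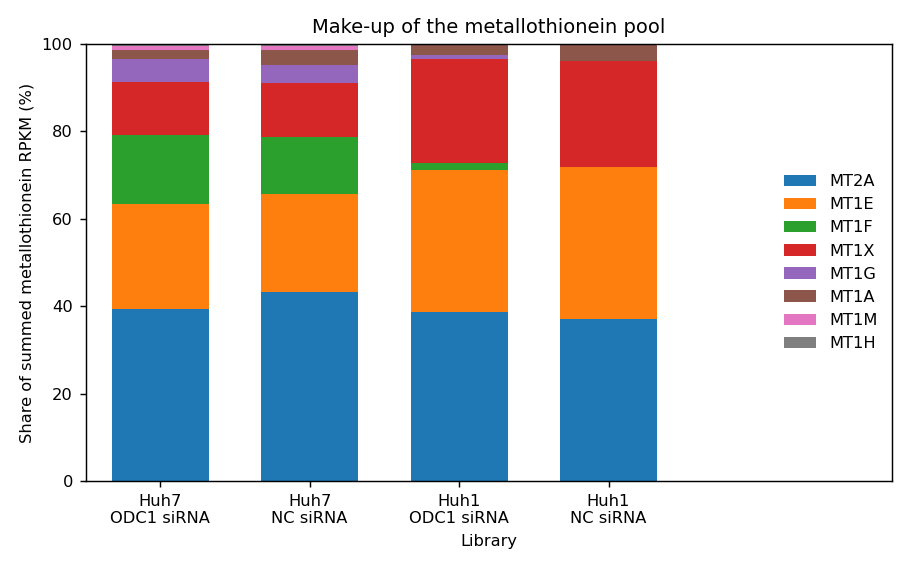
Share of each metallothionein in the summed metallothionein RPKM of each library, in percent; each bar is 1 library and adds to 100%. MT1F and MT1G take up a visible share in the Huh7 libraries and are nearly absent in the Huh1 libraries. The shares of MT1E and MT1X are larger in the Huh1 libraries, where they rest on few reads.

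For a test across the lines, limma was fitted to log2(RPKM + 1) with terms for line and siRNA, so that the lines served as the repeat of the treatment. The fit held the 12039 genes that reached 1 RPKM in at least 1 library, and 1.5% of them were called higher with ODC1 siRNA and 0.615% lower at an adjusted p under 0.05. All 10 members were in the fit, MT1A, MT1F, MT1G, MT1H and MT1M through Huh7 alone, and 4 were called higher and 0 lower. On simulated data 13.0% of the calls of this fit were false, which is above the threshold. With its variance trend set by counting variance that share was 4.12%, and MT1E was then the 1 member called. An unadjusted p under 0.05 was found for 6 of the 10 members, against 19% of the genes fitted. The members were chosen with earlier results of these data known, and metallothioneins may share reads. Their shares beside those of all genes are therefore descriptive and not a test. The value with ODC1 siRNA was the higher one in both lines for 6 of the 10 members, against 34.1% of the genes fitted. MT1F and MT1G count among the 6 on at most 2 reads in Huh1. The 4 without them, out of 10, are near the share of all genes, but MT1H and MT1M, at 0 in Huh1, could not count. Of the members with more than 3 reads in Huh1, MT2A, MT1E, MT1X and MTF1 were higher in both lines and SLC30A1 was not. MT1E rose by 0.71 on the log2 scale (SE 0.083, limma adjusted p = 0.0118), with 0.72 in Huh7 and 0.70 in Huh1. MT2A rose by 0.67 (SE 0.10, limma adjusted p = 0.0221), with 0.48 in Huh7 and 0.85 in Huh1. MT1X rose by 0.65 (SE 0.096, limma adjusted p = 0.021), with 0.57 in Huh7 and 0.73 in Huh1. MT1F rose by 0.70 (SE 0.13, limma adjusted p = 0.0402), with 0.90 in Huh7 and 0.49 in Huh1, the second of these on 2 reads against 0.

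The single-line values given for each gene are also what remains when either library of the other line is left out, and none of them has a test. For MT2A and MT1F the values of the lines are more than 1.5 times apart, MT2A being larger in Huh1 and MT1F in Huh7. The counting intervals of the 2 MT2A ratios overlap, and the MT1F value in Huh1 rests on 2 reads against 0 and on the pseudocount. MT1E was called under 5 of 8 alternative settings (limma adjusted p between 0.00257 and 1.000), MT2A and MT1X under 2 of 8 each, and MT1F under 1 of 8. MT1G was at 0.61 over both lines (limma adjusted p = 0.106), MT1M at 0.25 (limma adjusted p = 0.501), MT1H at 0.17 (limma adjusted p = 0.67) and MT1A at -0.0037 (limma adjusted p = 0.992). The fit has 1 residual degree of freedom per gene, and limma added 7.42 prior degrees of freedom drawn from all genes fitted. Its p-values therefore rest mostly on the spread of genes of like level. How far the lines differ in response for the gene itself, which may include technical variation, has the smaller weight.

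Set among all tested genes by size of rise in Huh1, MT2A ranked 15 of 12039, MT1X 32 and MT1E 36. MT1F (213), MT1G (916) and MT1A (3826) rested on at most 3 reads there, MT1H and MT1M were at 0, MTF1 ranked 2569 and SLC30A1 10129. In Huh7 the ranks were 53 for MT1G, 67 for MT1F, 140 for MT1E, 147 for MTF1, 309 for MT1X, 481 for MT1M, 553 for MT2A, 1213 for MT1H, 1886 for SLC30A1 and 8016 for MT1A. The median log2 fold change of the 8 metallothioneins in Huh7 was 0.54, against -0.0020 over all tested genes. No such median is given for Huh1, where 5 of the 8 had at most 3 reads and their values on this scale rest on the pseudocount. No member reached 2-fold on the log2(RPKM + 1) scale in either line, where 0.342% of genes with at least 1 RPKM were at least 2-fold higher in Huh7 and 0.055% in Huh1, and 0.429% and 0.0275% at least 2-fold lower.

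**Figure D4:**
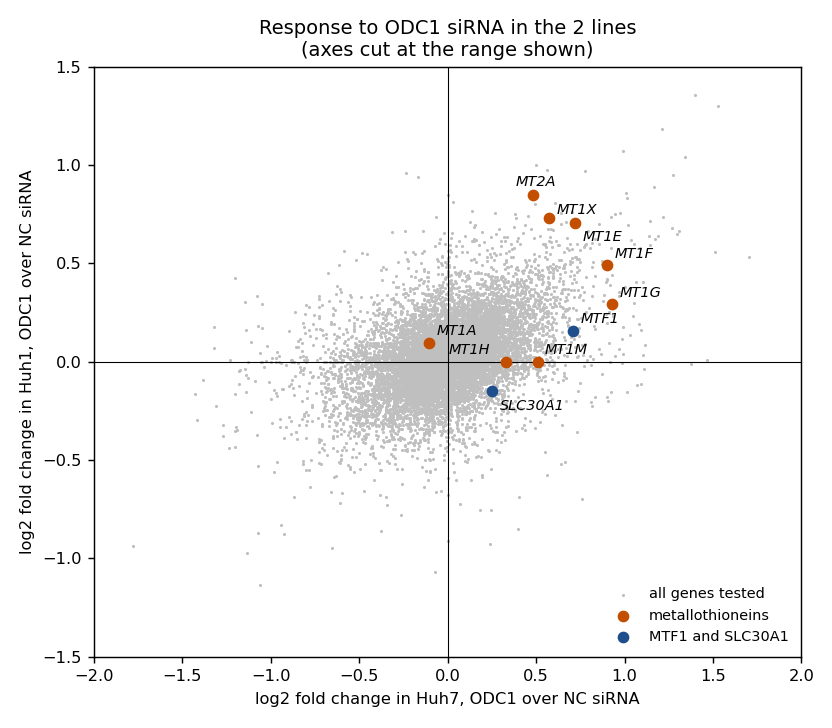
Log2 fold change of ODC1 over NC siRNA in Huh7 (horizontal) and Huh1 (vertical) for tested genes within the range shown (grey), the metallothioneins (orange) and MTF1 and SLC30A1 (blue). MT2A, MT1X, MT1E and MT1F lie in the upper right, MT1A near the centre, and MT1H and MT1M at 0 on the Huh1 axis because both were listed at 0 there.

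MTF1, the transcription factor that senses zinc, was at 7.33 RPKM in Huh7 with ODC1 siRNA, against 4.09 RPKM with NC siRNA, a ratio of 1.79 (95% counting interval 1.57 to 2.04). In Huh1 it was at 9.37 RPKM with ODC1 siRNA, against 8.296 RPKM with NC siRNA, a ratio of 1.13 (1.03 to 1.24). The Huh7 level with NC siRNA was the lowest of the 4, and the counting intervals of the 2 ratios do not overlap. Over both lines MTF1 was at 0.43 (SE 0.14) and did not pass the threshold (limma adjusted p = 0.158). The difference between the lines in this response was not tested, since each line has 1 library per siRNA.

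SLC30A1, the zinc exporter that MTF1 drives, was at 17.3 RPKM in Huh7 with ODC1 siRNA, against 14.4 RPKM with NC siRNA (ratio 1.204, 1.07 to 1.36). In Huh1 it was at 17.96 RPKM with ODC1 siRNA, against 19.99 RPKM with NC siRNA (ratio 0.899, 0.808 to 0.999). The directions were opposite in the lines, with counting intervals that end close to 1, and over both lines SLC30A1 was at 0.053 (SE 0.11, limma adjusted p = 0.841). The difference between SLC30A1 and the 4 called metallothioneins was not tested.

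Promoter sequence from RefSeq (GRCh38.p14) was on hand for 5 of the 10 members, and the 250 bases before the transcription start were searched on both strands for the core of the metal response element, TGCACNC or TGCGCNC. The 4 that held a match are given 5′ to 3′ on the strand of the gene, with matches on either strand in capitals, because they differ in how many they hold. RefSeq and GENCODE differ in where MT2A, MT1X, MTF1 and SLC30A1 start. The windows of MT2A, MT1X and MTF1 overlap the GENCODE gene and that of SLC30A1 lies upstream of it with a gap, so the match counts hold for the RefSeq starts only.
MT2A (chr16:56608334-56608583, plus strand): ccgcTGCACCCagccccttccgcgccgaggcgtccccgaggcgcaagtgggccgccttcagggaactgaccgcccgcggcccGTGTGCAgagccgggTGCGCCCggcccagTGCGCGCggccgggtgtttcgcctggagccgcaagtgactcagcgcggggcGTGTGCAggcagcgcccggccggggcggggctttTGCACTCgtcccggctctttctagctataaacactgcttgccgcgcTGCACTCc
MT1X (chr16:56682220-56682469, plus strand): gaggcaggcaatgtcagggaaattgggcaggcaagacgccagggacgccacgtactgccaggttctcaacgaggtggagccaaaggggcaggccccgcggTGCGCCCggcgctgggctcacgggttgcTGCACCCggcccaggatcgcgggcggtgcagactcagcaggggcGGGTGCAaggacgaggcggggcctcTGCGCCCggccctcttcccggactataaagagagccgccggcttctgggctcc
MT1H (chr16:56669564-56669813, plus strand): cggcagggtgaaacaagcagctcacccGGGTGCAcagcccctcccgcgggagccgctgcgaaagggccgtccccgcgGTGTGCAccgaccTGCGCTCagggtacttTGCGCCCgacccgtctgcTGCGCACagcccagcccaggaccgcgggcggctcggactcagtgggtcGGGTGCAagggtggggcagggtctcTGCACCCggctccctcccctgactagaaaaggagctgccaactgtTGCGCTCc
SLC30A1 (chr1:211579162-211579411, minus strand): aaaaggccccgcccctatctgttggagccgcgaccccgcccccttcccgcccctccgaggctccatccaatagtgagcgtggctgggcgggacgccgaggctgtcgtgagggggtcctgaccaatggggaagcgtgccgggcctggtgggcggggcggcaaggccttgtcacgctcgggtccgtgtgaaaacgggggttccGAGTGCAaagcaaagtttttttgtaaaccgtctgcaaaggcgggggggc

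MT1H held 8 matches, MT2A 7, MT1X 4 and SLC30A1 1, and the MTF1 window held none on either strand. Of 35116 promoters of this length, 24.8% held at least 1 match, 0.37% held 4 or more and 0.0313% held 7 or more. MT1X and MT1H each carried a match at 53 to 47 bases before the start, and MT2A at 54 to 48. The number of matches did not follow the level of the gene: MT1H, with 8, was at 1.97 RPKM in Huh7 with ODC1 siRNA and was listed at 0 in Huh1, and MT1B, a further metallothionein gene with 3, was listed at 0 in all 4 libraries. A match describes letters only, and binding was not measured here.

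The lines were compared next. Each of the 8 metallothioneins had a higher level in Huh7 than in Huh1 with either siRNA. For MT2A, MT1E and MT1X both Huh7 libraries lay above both Huh1 libraries, as for 48.3% of the genes fitted, while MT1A, MT1F, MT1G, MT1H and MT1M entered the fit through Huh7 alone and had to lie higher there. The summed level was 14.6 times as high in Huh7 as in Huh1 with ODC1 siRNA and 17.7 times as high with NC siRNA. For MT2A the ratio of Huh7 to Huh1 was 14.9 with ODC1 siRNA (95% counting interval 11.1 to 20.3) and 20.7 with NC siRNA (14.3 to 30.95). For MT1E it was 10.8 (8.04 to 14.7) with ODC1 siRNA and 11.4 (8.001 to 16.7) with NC siRNA. For MT1X it was 7.32 (5.05 to 10.9) with ODC1 siRNA and 8.99 (5.702 to 14.9) with NC siRNA. The order MT2A, MT1E, MT1X held with each siRNA, but the counting intervals of neighbours in that order overlap with each siRNA.

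MT1F had the highest value, but the counts cannot order it against MT1G, since Huh1 held at most 2 reads of either and their counting intervals overlap. With ODC1 siRNA the MT1F ratio of Huh7 to Huh1 was 155.5, on 283 reads against 2 (42.7 to 1290.4). With NC siRNA, where Huh1 held 0 reads, MT1F in Huh7 was 65.3-fold above a floor of 3 reads per library. MT1G was at a ratio of 93.4 with ODC1 siRNA, on 85 reads against 1 (16.3 to 3733), and 18.7-fold above the floor with NC siRNA. MT1M in Huh7 was 5.50-fold above the floor with ODC1 siRNA and 4.02-fold above it with NC siRNA. MT1H in Huh7 was 2.93-fold above the floor with ODC1 siRNA and 2.41-fold above it with NC siRNA. Values against the floor take the Huh7 reads as exact and leave out their counting error. That error is largest for MT1H, on 8 and 6.6 reads, and MT1M, on 15 and 11 reads, so the true gap may be smaller. MT1A was at 12.5 with ODC1 siRNA (3.92 to 63.4) and 16.1 with NC siRNA (5.16 to 81.03), on 3 reads in each Huh1 library.

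In the line term of the same limma fit, 43.1% of all tested genes were called higher in Huh7 and 30.8% lower. All 8 metallothioneins were called higher and MTF1 lower. The calls of the 5 that entered through Huh7 alone add nothing to their levels. The 2 siRNAs stand in for replicates of a line here, and the median log2 difference of all genes was 0.13. MT2A was at 3.95 (SE 0.10, limma adjusted p = 6.96e-09) and MT1E at 3.28 (SE 0.083, limma adjusted p = 7.13e-09). On the log2(RPKM + 1) scale, and of all genes at 1 RPKM or more in either library, 16.2% were at least 2-fold higher in Huh7 with ODC1 siRNA and 17% with NC siRNA, and 11.1% and 10.2% at least 2-fold lower. With each siRNA, 8 of the 10 members were in the higher class, 5 of them through the filter, and 0 in the lower one. The ratio of MTF1 levels with NC siRNA, taken without the pseudocount, was past 2-fold.

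MTF1 went the other way. Its ratio of Huh7 to Huh1 was 0.782 with ODC1 siRNA (0.702 to 0.869) and 0.493 with NC siRNA (0.437 to 0.556), and both Huh7 libraries lay below both Huh1 libraries, as did those of 35.4% of all genes. In the fit it was at -0.59 (SE 0.14, limma adjusted p = 0.00513) and was called under 7 of 8 alternative settings. SLC30A1 was at a ratio of 0.964 with ODC1 siRNA (0.857 to 1.08) and 0.719 with NC siRNA (0.644 to 0.804), and at -0.25 in the fit (SE 0.11, limma adjusted p = 0.0712), with a call under 3 of 8 alternative settings. Huh7, with the higher metallothionein levels, had the lower MTF1 level under each siRNA, and SLC30A1 did not pass the threshold.

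**Figure D5:**
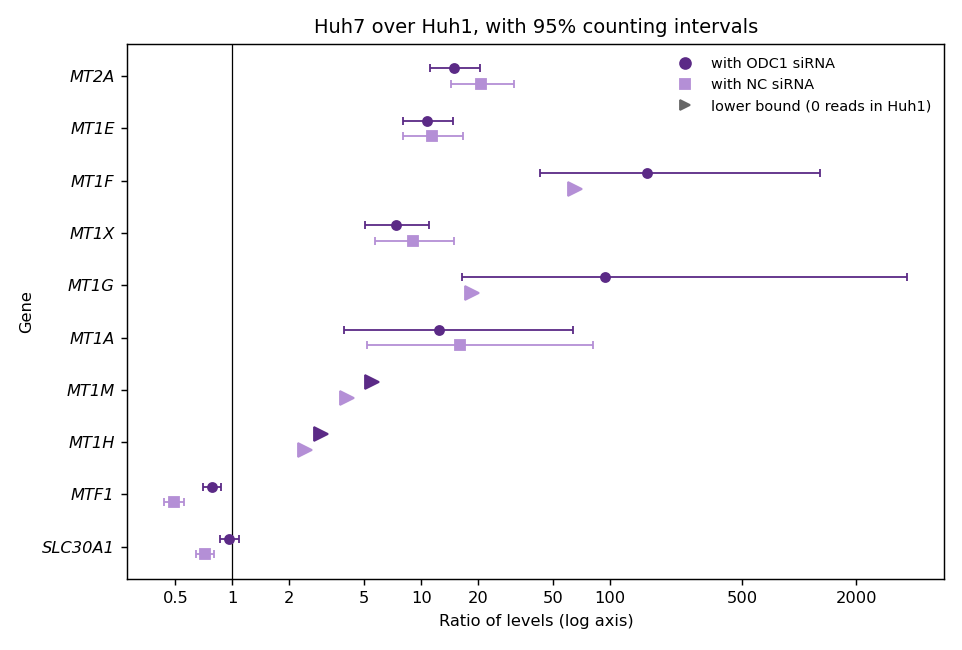
Ratio of Huh7 to Huh1 for each gene, with ODC1 siRNA (circles) and NC siRNA (squares), on a log axis with 95% counting intervals. Triangles are bounds against 3 reads where the Huh1 library held 0, and they leave out counting error in Huh7. The 8 metallothioneins lie above 1 and MTF1 below it, at 0.782 and 0.493.

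Lists of other genes of zinc and metal handling are set against the shares over all genes, 1.5% called higher and 0.615% lower, at which lists of this size would hold about no call. Of 9 further members of the SLC30 family, most of them zinc exporters, 6 were tested and 0 were called in either direction. SLC30A10, a manganese exporter of that family, was at 4.39 RPKM in Huh7 with ODC1 siRNA, against 7.73 RPKM with NC siRNA, and at 4.06 RPKM in Huh1 with ODC1 siRNA, against 4.53 RPKM with NC siRNA (-0.41 over both lines, limma adjusted p = 0.193). SLC30A6, which acts with SLC30A5 in the secretory pathway, was at -0.36 in Huh7 and -0.29 in Huh1 (limma adjusted p = 0.145). The list had medians of -0.14 in Huh7 and -0.071 in Huh1.

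Of 14 zinc importers of the SLC39 family, 12 were tested and 0 were called. SLC39A10, a plasma membrane importer whose gene MTF1 is known to repress in mouse, was at 4.698 RPKM in Huh7 with ODC1 siRNA, against 10.4 RPKM with NC siRNA, and at 7.18 RPKM in Huh1 with ODC1 siRNA, against 8.31 RPKM with NC siRNA. Its log2 fold changes were -1.001 in Huh7 and -0.19 in Huh1, so it was among the 0.429% of genes at least 2-fold lower in Huh7, and it did not pass over both lines (-0.59, SE 0.18, limma adjusted p = 0.123). SLC39A13, a zinc transporter of the secretory pathway, was at 0.16 in Huh7 and 0.29 in Huh1 (limma adjusted p = 0.35). The medians of the list were 0.096 in Huh7 and 0.060 in Huh1.

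Copper genes were measured because metallothioneins also bind copper, and 0 of the 12 tested were called. CCS, the copper chaperone of superoxide dismutase 1, was at 54.6 RPKM in Huh7 with ODC1 siRNA, against 44.8 RPKM with NC siRNA, and at 11.1 RPKM in Huh1 with ODC1 siRNA, against 8.76 RPKM with NC siRNA (0.297 over both lines, limma adjusted p = 0.109). SCO2, a copper chaperone of cytochrome c oxidase, was at -0.28 (limma adjusted p = 0.154). Among further genes of the metallothionein name, MT1B, MT3 and MT4 were listed at 0 in each library. MTL5, the gene of tesmin, was at 2.25 RPKM in both Huh7 libraries and at 1.11 RPKM in Huh1 with ODC1 siRNA, against 0.533 RPKM with NC siRNA (limma adjusted p = 0.507).

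Among 12 tested genes of heavy metal and proteotoxic stress, 3 fell and 0 rose, against 0.615% lower and 1.5% higher over all genes. GCLM was called under 3 of 8 alternative settings and HSPA1A and HSPA1B under 2 of 8 each. In each line 1 of the 12 had a log2 fold change above 0, against 49.5% of genes in Huh7 and 55.1% in Huh1. GCLM, a subunit of the first enzyme of glutathione synthesis, was at 21.3 RPKM in Huh7 with ODC1 siRNA, against 30.9 RPKM with NC siRNA, and at 257 RPKM in Huh1 with ODC1 siRNA, against 330.0 RPKM with NC siRNA. It fell by 0.44 (SE 0.071, limma adjusted p = 0.0265). The heat shock genes HSPA1A and HSPA1B fell by 0.38 (limma adjusted p = 0.0432) and 0.41 (limma adjusted p = 0.0488), and as near-identical copies their reads cannot be divided with certainty. GCLM had the higher level in Huh1, unlike the metallothioneins.

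Of 10 tested glucocorticoid response genes, 0 were called. SGK1, a kinase gene induced by glucocorticoids, was at 25.8 RPKM in Huh7 with ODC1 siRNA, against 48.8 RPKM with NC siRNA, and at 1.26 RPKM in Huh1 with ODC1 siRNA, against 1.02 RPKM with NC siRNA (limma adjusted p = 0.386). TSC22D3, the glucocorticoid-induced leucine zipper, was at 17.2 RPKM in Huh7 with ODC1 siRNA, against 12.6 RPKM with NC siRNA, and at 1.32 RPKM in Huh1 with ODC1 siRNA, against 0.88 RPKM with NC siRNA (0.36, limma adjusted p = 0.157). Of 13 tested genes of interleukin-6 signalling and the acute phase, 2 fell and 0 rose, the fibrinogen genes FGA (-0.36, limma adjusted p = 0.0336) and FGG (-0.38, limma adjusted p = 0.0327), each called under 2 of 8 alternative settings.

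The genes closest to MT2A in pattern, by the mean absolute difference between log2 values centred on each gene's own mean over the 4 libraries, were NUAK2 (0.112), ANKRD1 (0.16), ESAM (0.164), ZNF655 (0.211) and LTBP1 (0.217). They were taken from 9509 genes that reached 5 RPKM, and the line difference makes up most of the measure. In Huh1 with ODC1 siRNA, ESAM was at 0.667 RPKM, ZNF655 at 0.304 RPKM and LTBP1 at 0.143 RPKM, and each was lower with NC siRNA. Their likeness to MT2A therefore rests largely on the pseudocount, and their place among the closest genes is uncertain. Among metallothioneins with more than 3 reads in Huh1, MT1E was at 0.337 and MT1X at 0.591. MT1G (0.2498), MT1F (0.673) and MT1A (0.683) had at most 3 reads in each Huh1 library, so their likeness rests on the pseudocount and is not ranked. ANKRD1 was at 199.7 RPKM in Huh7 with ODC1 siRNA, against 157 RPKM with NC siRNA, and at 13.6 RPKM in Huh1 with ODC1 siRNA, against 10.3 RPKM with NC siRNA.

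The summed level of 5 fibroblast markers was higher in the same libraries as the metallothioneins. The sum was 370.04 RPKM in Huh7 with ODC1 siRNA, against 283 RPKM with NC siRNA, and 15.7 RPKM in Huh1 with ODC1 siRNA, against 12.1 RPKM with NC siRNA. Of the 5 markers, 4 were tested and 1 was called, LUM, the gene of the matrix protein lumican, which rose by 0.39 (SE 0.074, limma adjusted p = 0.0403) and was called under 2 of 8 alternative settings. COL1A2 was at 45.8 RPKM in Huh7 with ODC1 siRNA, against 31.4 RPKM with NC siRNA, and at 0.0165 RPKM in Huh1 with ODC1 siRNA, against 0.0138 RPKM with NC siRNA. COL1A1 was at 128 RPKM in Huh7 with ODC1 siRNA, against 107 RPKM with NC siRNA, and at 0.0763 RPKM in Huh1 with ODC1 siRNA, against 0.115 RPKM with NC siRNA. DCN was under 1 RPKM in each library, and LUM, at 15.5 RPKM with ODC1 siRNA and 11.95 RPKM with NC siRNA, made up nearly the whole sum in Huh1. Their part in the metallothionein values was not tested. Of the 11 hepatocyte markers, 2 in Huh7 and 4 in Huh1 had a log2 fold change above 0, against 49.5% and 55.1% of genes. The medians of that list were -0.34 in Huh7 and -0.055 in Huh1. The called ones were TTR, which rose by 0.47 (limma adjusted p = 0.0494) against most of the list, and ALB, which fell by 0.32 (limma adjusted p = 0.0232). TTR was called under 1 of 8 alternative settings and ALB under 3 of 8, and ALB was at -0.195 after quantile normalization (limma adjusted p = 0.179).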

How the data were processed

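RNA sequencing was done on 4 libraries, 1 for each combination of cell line (Huh7, Huh1) and siRNA (ODC1, NC), from total RNA prepared with a TruSeq kit, per the labels' protocols. The deposited values are RPKM, which the authors made per RefSeq transcript (18398 rows, 18382 symbols). The submitters' processing notes name CASAVA 1.8.2, TopHat2 2.0.9 and the build hg19. How reads were counted, with which annotation release, whether by strand, and what became of reads that match several metallothioneins is not given in the sources used here. The files hold no coordinates, so positions come from GENCODE release 29 and sequences from it and RefSeq, both on GRCh38.

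Depth per library was recovered from low values as whole multiples of 1 read at the GENCODE length (tolerance 0.01 reads, true of 10.4% to 11.2% of transcripts above 0). Reads per gene were RPKM times depth times length. For 7 of the 10 members they were multiples of 0.5 reads, at a length that was in part chosen for that. MT1H, MT1X and MTF1 gave fractions, so their read numbers are approximate. Counting intervals are 95% Poisson intervals for levels and conditional binomial intervals for ratios (scipy 1.17.1). The floor for 0 reads is 3 reads per library.

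Tests used limma 3.58.1 in R 4.3.3 on log2(RPKM + 1), with line and siRNA as terms, an intensity trend, genes of at least 1 RPKM in any library and Benjamini-Hochberg adjustment with a threshold of 0.05. A fold change on this scale understates that of low genes. The fit was tried on 5 simulated data sets with a common dispersion of 0.005 and the same fold change in both lines. The share of false calls was 13.0% with the intensity trend used here, above the threshold, and 4.12% with the trend on counting variance. Under the latter, MT1E is the 1 member called for ODC1 siRNA. The simulated lines did not differ in response, so these shares may not hold for the deposited data. Within a line there is no test, and genes changed at least 2-fold were counted. Genes named are all members, ODC1, the called genes of each list (or the 2 with the largest mean absolute change where fewer than 2 were called) and the 5 genes most like MT2A. COL1A1 and DCN were named after their values were seen. Members and lists were chosen with earlier results of these data known. The coding sequence of 1 member is not reported here.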

Additional observations from a re-analysis of the deposited data

Results flagged for a closer look

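For 3 genes the difference between ODC1 and NC siRNA ran in opposite directions in the lines, with 1 library per siRNA in each line, so this difference was not tested. MT1A had a log2 fold change of -0.10 in Huh7 and 0.10 in Huh1, the second on 3 reads in each library. SLC30A1 had a log2 fold change of 0.25 in Huh7 and -0.15 in Huh1. SGK1, a gene induced by glucocorticoids, had a log2 fold change of -0.90 in Huh7 and 0.16 in Huh1, where its level was 1.26 RPKM with ODC1 siRNA and 1.02 RPKM with NC siRNA.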

How the results depend on the processing

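The limma test of ODC1 siRNA over both lines called 255 genes. It called 54 with a pseudocount of 0.1 RPKM, 108 with a filter at 5 RPKM, 52 after quantile normalization, 479 after upper quartile scaling and 330 with the trend on counting variance. It called 0 with no filter, 0 without a trend and 0 without the line term, where 2040, 1830 and 22 genes had an unadjusted p under 0.05; the cause was not tested. With the trend on counting variance, MT1E was called (adjusted p = 0.0442) and MT1F (0.0746), MT1X (0.105) and MT2A (0.0561) were not. MT1F was at 1.63 on the log2 scale with a pseudocount of 0.1 RPKM, and MT1A turned to 0.052, against -0.0037. Of the 10 other named genes that were called, ODC1 among them, all 10 lost the call with no filter, without a trend and without the line term, 9 with a pseudocount of 0.1 RPKM, 9 after quantile normalization, 7 with a filter at 5 RPKM and 2 with the trend on counting variance. Genes changed at least 2-fold numbered 88 in Huh7, 236 with a pseudocount of 0.1 RPKM and 650 under a 1.5-fold rule, and 9 in Huh1, with 45 and 150 under the same alternatives.

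The line term called 8891 genes, and between 7108 and 9341 under the alternatives. The call of MTF1 was lost without the siRNA term (adjusted p = 0.073). SLC30A1 was called after quantile normalization (adjusted p = 0.0291), upper quartile scaling (0.0144) and with the trend on counting variance (0.0461). The summed metallothionein ratio of ODC1 to NC siRNA was between 1.49 and 1.65 in Huh7 and between 1.76 and 1.87 in Huh1 under the alternatives run. Leaving out 1 library leaves no residual degree of freedom, so those fits give values and no test. MT1H and MT1M have no value with the filter at 5 RPKM. The labels give no replicate numbers, and the line term, which pairs ODC1 with NC siRNA within a line, is the only block. Depth limits MT1F, MT1G, MT1H, MT1M and MT1A in Huh1, which held at most 3 reads each.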
